A study of Mus musculus with 18 samples.

Results

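Solute carriers (SLCs) are membrane proteins that move sugars, amino acids, ions, metals, nucleotides, vitamins and other small molecules across the plasma membrane and the membranes of organelles. Most are made by ribosomes docked at the endoplasmic reticulum, whereas the mitochondrial carriers of the SLC25 family are made in the cytosol and imported into mitochondria. In embryonic stem cells (ESCs) this class includes the glucose importer Slc2a3 and the large neutral amino acid importer Slc7a5. The solute carrier genes were selected on measured values, as rows of the counts table whose symbol starts with Slc and a digit and that reached 3 CPM (counts as a rate over the library total) or more in at least 3 of the 18 libraries. This gave 214 members among 12851 genes tested and 51467 genes in the table. Another 165 rows had such a symbol but did not pass, and 43 of these had no count in any library.

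The libraries come from polysome profiling of mouse ESCs that were either wild type (WT) or knocked out for Dgcr8 (KO). The study lists V6.5 as the WT line and the KO line as a separate one made earlier, whose parent line is not given in the sources used here, so genotype and line cannot be told apart. DGCR8 works with Drosha to cut primary microRNAs, and cells without it have no canonical microRNAs. Both genotypes grew in 15% fetal bovine serum with LIF and 2i, the inhibitors PD0325901 and CHIR99021. Cells of both received 100 ug/ml of the elongation blocker cycloheximide for 2 minutes before lysis, and their extracts were spun through 10 to 50% sucrose. For each genotype, 3 gradients were collected as monosome, low polysome (2 to 4 ribosomes) and high polysome (4 or more) fractions, which makes 6 groups of 3 libraries. Reads were taken from the 3′ ends of polyadenylated RNA, so a count does not grow with transcript length and CPM can be compared between genes without dividing by it. The sources used here do not say whether the gradients came from separate cultures or whether the KO line is 1 clone, so p-values measure the spread between gradients, which may be technical. In bulk RNA, fewer cells of a type and less RNA per cell cannot be told apart.

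Libraries held 1151649 to 4984833 counts, with the monosome libraries smallest, and 3 counts corresponded to 0.602 to 2.6 CPM. Dgcr8 kept 38 or more reads in every library. Its monosome level ranged from 68.4 to 79.6 CPM in WT against 47.3 to 52 CPM in KO cells. In high polysomes the ranges were 26.1 to 29.6 and 8.73 to 23 CPM. A 3′ read outside the deleted part of the gene checks nothing, so these values bear on the labels only in part. All 7 ESC markers were detected. Their sums overlapped between genotypes in monosomes and met at 2290 CPM in low polysomes. In high polysomes the sums were 3410 to 3570 CPM in WT and 2830 to 2960 CPM in KO cells. Means there were lower in KO cells for Klf4 (834 and 434 CPM), Pou5f1 (67.1 and 25.5 CPM), Nanog, Zfp42 and Tfcp2l1. They were higher for Sox2 (664 and 687 CPM) and Esrrb (328 and 354 CPM). In monosomes Pou5f1 (31.1 and 39.2 CPM), Nanog, Sox2, Esrrb and Zfp42 had higher means in KO cells, and Klf4 and Tfcp2l1 lower ones. The 5 fibroblast markers summed to 7.01 to 12.3 CPM in WT and 1.92 to 20.9 CPM in KO libraries, with Postn at 0 to 2 counts. The 5 primitive endoderm markers, led by Lama1, summed to 12.4 to 36 CPM in WT and 1.96 to 13.8 CPM in KO libraries. The 3 formative markers summed to 44.8 to 84.4 and 32.4 to 79.1 CPM, with Fgf5 at 0 or 1 count and Pou3f1 at 27.3 CPM in WT and 3.02 CPM in KO high polysomes on average. The part of these lists in the results below was not tested.

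Members differ in what they carry, and the substrate groups were taken from the SLC family numbers. There were 35 amino acid carriers, 35 mitochondrial carriers, 29 carriers of inorganic ions, 28 of metals and heme, 22 of nucleotide sugars and related substrates (SLC35), 15 of sugars, 15 of organic ions and bile acids, 10 of carboxylates, 8 of vitamins, 6 of nucleosides and 6 of fatty acids or choline. The remaining 5 members share the symbol but are not carriers: Slc4a1ap, Slc7a6os, Slc9a3r1 and Slc9a3r2 encode adaptor or other proteins, or lie beside a carrier gene, and Slc22a13b-ps is a polymorphic pseudogene. Of all members, 164 reached 3 CPM in all 18 libraries. The filter was passed only in KO libraries by 4 members, among them Slc25a24, Slc38a5 and Slc4a9, and only in WT libraries by Slc11a1, Slc13a5, Slc22a7, Slc25a29, Slc25a35 and Slc8a2, so these 10 had to differ between the genotypes. Just inside the threshold, with 3 libraries each, were Slc25a29 and Slc39a7, whose highest values were 4.83 and 4.1 CPM. Just outside, 9 genes reached 3 CPM in 2 libraries, with highest values of 3.47 to 5.21 CPM. The cystine importer Slc7a11 did not pass and is not a member.

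Together, the members took a larger share of the reads in KO cells and toward heavier fractions. They held 1.46 to 1.53% of counts in WT monosomes and 2.09 to 2.13% in WT high polysomes, against 1.69 to 1.71% and 2.62 to 2.64% in KO cells. The summed level of the mitochondrial carriers was lower in KO cells. It came to 3920 to 4130 CPM in WT against 3060 to 3220 CPM in KO monosomes. In high polysomes these sums were 3510 to 3720 and 2880 to 3050 CPM, and 1 abundant gene, Slc25a4, made up most of that gap, with means of 712 and 158 CPM. In monosomes 19 of the 35 had a positive change, with a median of 0.12 and 3 called higher and 3 lower. The other members together were at 16100 to 17200 CPM in WT and 26200 to 27100 CPM in KO high polysomes, so that the libraries of the groups did not overlap in any of these sums.

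The most abundant members were carriers of the main nutrients. Slc2a3 (ENSMUSG00000003153, chromosome 6, 122727809 to 122801640, minus strand), a glucose importer of high affinity, was at 620, 625 and 580 CPM in the 3 WT monosome libraries and 679, 619 and 668 CPM in the KO ones. In high polysomes it was at 1530, 1410 and 1340 CPM in WT and 2800, 2120 and 3000 CPM in KO cells. Its monosome libraries overlapped between genotypes, whereas each KO high polysome library was above each WT one (log2 change 0.87, SE 0.11, adjusted p = 8.48e-09), which is under the fold threshold of a call. Calls here and below required a log2 change beyond 1 in size together with a limma p under 0.05 after adjustment over all 12851 genes tested.

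Slc7a5 (ENSMUSG00000040010, chromosome 8, 121881150 to 121907694, minus strand) and Slc3a2 encode the 2 subunits of the large neutral amino acid importer. Slc7a5 was at 634, 667 and 578 CPM in WT monosomes and 227, 202 and 211 CPM in KO monosomes. It was lower in KO cells in monosomes (log2 change -1.56) and low polysomes (-1.09), and these groups did not overlap. The low polysome value was -0.9 without WT replicate 1 and -0.99 without KO replicate 1, which ends that call. In high polysomes its change was -0.91 (SE 0.14), from 1850 to 2530 CPM in WT to 1080 to 1230 CPM in KO cells. Slc3a2 changed by -0.66, -0.93 and -0.4 in monosomes, low and high polysomes and was not called. Slc1a5 (ENSMUSG00000001918, chromosome 7, 16781340 to 16798274, plus strand), an importer of glutamine and other neutral amino acids, was also lower in monosomes, at 717, 680 and 836 CPM in WT and 252, 296 and 331 CPM in KO cells (log2 change -1.34).

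Other abundant members were higher in KO cells. The taurine importer Slc6a6 was at 592, 629 and 595 CPM in WT and 1690, 1560 and 1690 CPM in KO high polysomes (log2 change 1.44, SE 0.12, adjusted p = 8.1e-14), a difference far larger than the spread of either group. The creatine importer Slc6a8 was called higher in monosomes (1.06) and high polysomes (1.09). Its monosome value was 0.85 without WT replicate 3 and 1 without KO replicate 2, and its high polysome value 0.98 without WT replicate 3, each of which ends the call. The phosphate importer Slc20a1, at 690 to 1470 CPM in all high polysome libraries, changed by 0.81 (SE 0.12) and was not called. The mitochondrial phosphate carrier Slc25a3 was at 1120 to 1160 CPM in WT and 1140 to 1200 CPM in KO high polysomes, and no difference was detectable there (0.02 on the log2 scale, SE 0.1, adjusted p = 0.864). In monosomes it changed by -0.57.

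The first comparison was where along the gradient these messages lie, measured as the translation level, the log2 ratio of high polysome to monosome counts. In WT cells 37 members were called on the high polysome side, 17.3% of members against 10.7% of all genes tested, and 19 on the monosome side, 8.88% against 19.3%. In KO cells 71 members (33.2%) were on the high polysome side, where 17.5% of all genes were, and 19 (8.88%) on the monosome side, where 25.5% of all genes were. The median translation level over members was 0.29 in WT and 0.5 in KO cells, against -0.01 and -0.07 over all genes. Both genotypes shared 30 high polysome calls (14% of members, against 6.22% of all genes) and 12 monosome calls (5.61% against 15.2%). In single gradients the median over members was 0.19, 0.25 and 0.46 in WT and 0.61, 0.49 and 0.47 in KO cells, so all KO gradients were above all WT gradients, by little at the closest, under the scaling used here. That scaling uses TMM factors. With total counts instead the KO calls were 54 high polysome and 27 monosome members, and the order of the medians turned, to 0.38 in WT and 0.26 in KO cells. The all-gene medians were then 0.07 in WT and -0.32 in KO cells. Relative to all genes the members' median was 0.31 higher in WT and 0.58 higher in KO cells under both scalings. That agreement is no check, because a change of scaling shifts all genes nearly alike.

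Of the 5 lowest translation levels in WT cells, 4 belonged to mitochondrial carriers. In WT cells the mitochondrial iron importers Slc25a37 and Slc25a28 were at -3.3 (SE 0.22) and -2.5 (SE 0.16), and Slc25a23, Slc25a38 and Slc25a39 at -2.89, -2.33 and -2.02. The manganese exporter Slc30a10, which is not mitochondrial, was at -2.55. Slc25a37 was at 126, 123 and 161 CPM in monosomes and 12.1, 13.3 and 15 CPM in high polysomes of WT cells, with no overlap. These 5 mitochondrial carriers were between -1.83 and -3.77 in KO cells. At the other end were Slc16a1, a lactate and pyruvate carrier (1.87 in WT and 2.1 in KO), Slc7a5 (1.79 and 2.43), the peptide importer Slc15a1 (1.79 and 2.21) and the sodium, potassium and chloride importer Slc12a2 (1.72 and 2.32). Slc16a1 rose from 97.8, 97.4 and 91.1 CPM in monosomes to 374, 336 and 345 CPM in high polysomes of WT cells.

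**Figure D1:**
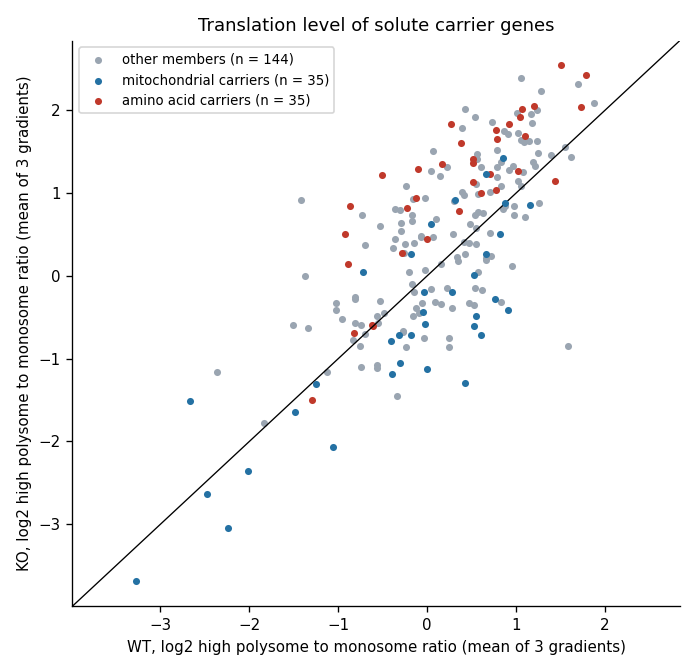
Log2 ratio of high polysome to monosome CPM in WT (horizontal) and KO cells (vertical), each the mean of 3 gradients, for the 214 solute carrier genes, with the 35 mitochondrial carriers in blue, the 35 amino acid carriers in red and the others in grey. The diagonal marks equal levels, and 34 of 35 amino acid carriers had a positive change as fitted while 8 of 35 mitochondrial carriers did.

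The second comparison was KO against WT within each fraction. In monosomes 32 members were higher in KO cells (15% of members, against 8.43% of all genes tested) and 25 lower (11.7% against 9.63%). In low polysomes 43 were higher (20.1% against 11.4%) and 24 lower (11.2% against 13.6%). In high polysomes 78 were higher (36.4% against 15.1%) and 24 lower (11.2% against 17.9%). The median change over members was 0.32, 0.35 and 0.58 in the 3 fractions, against -0.05, 0 and -0.08 over all genes. Because members had to pass the filter, 1 genotype alone let 10 of them in, and with those left out the high polysome counts were 75 higher and 18 lower of 204. The balance also moved with the library scaling. Scaled by total counts, high polysomes gave 55 members higher and 36 lower and a median of 0.36, on a scale that moved the all-gene median by -0.22 (log2). Relative to all genes the members' median was 0.66 higher with TMM factors and 0.67 higher with total counts. These values had to be close, because a change of scaling shifts all genes of a comparison nearly alike.

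By substrate, the high polysome calls were mostly on the higher side outside the mitochondrial carriers. Of 35 amino acid carriers 17 were higher and 3 lower, of 29 ion carriers 14 and 5, and of 22 nucleotide sugar carriers 9 and 1. For vitamins the counts were 5 higher and 0 lower of 8, for nucleosides 5 and 0 of 6, and for fatty acids and choline 5 and 0 of 6. For metals they were 7 and 2 of 28, for organic ions 7 and 1 of 15, for sugars 5 and 1 of 15 and for carboxylates 3 and 1 of 10. The mitochondrial carriers had 1 higher and 7 lower of 35, with a median of -0.33, or -0.56 with total counts. Medians of the other substrate groups were 0.36 to 1.54, and 0.14 to 1.31 with total counts. These shares are descriptions beside the 15.1% and 17.9% of all genes and were not tested as lists.

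Between the genotypes, 131 members (61.2%) were called in at least 1 fraction, against 43.8% of all genes tested, and 0 were called in opposite directions in 2 of them. In all 3 fractions 19 members (8.88%) were higher and 11 (5.14%) lower, against 5.49% and 4.44% of all genes. Among the higher ones were the vitamin carriers Slc5a6 (biotin and pantothenate) and Slc52a3 (riboflavin), the sugar carriers Slc5a1 (sodium-coupled glucose) and Slc37a1, the nucleoside carriers Slc28a1 and Slc29a3, the fatty acid carrier Slc27a2, the choline carrier Slc44a1 and the metal carrier Slc39a14. The Golgi GDP-fucose carrier Slc35c1 and the related Slc35b4 and Slc35d2 were among them too. With total counts Slc35c1 (0.9) and Slc44a1 (0.99) were not called in high polysomes. The lower ones included the amino acid carriers Slc1a1 and Slc1a4, the mitochondrial ADP/ATP carrier Slc25a4 and the magnesium carrier Slc41a3.

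**Figure D2:**
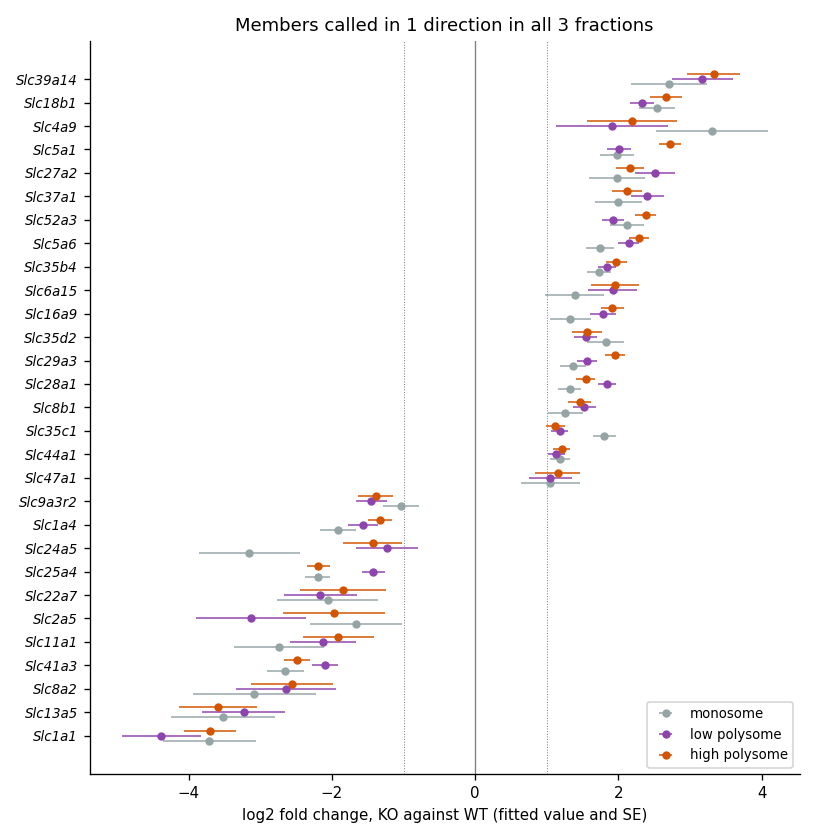
Fitted log2 fold change of KO against WT with its standard error in monosomes (grey), low polysomes (purple) and high polysomes (orange), for members called higher in all 3 fractions (all but 1 of the 19) and the 11 called lower, ordered by their mean change. Dotted lines mark the fold threshold of 1, and Slc39a14 lies at the upper and Slc1a1 at the lower end.

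Several of these differences separate all libraries of the 2 genotypes by a wide margin. Slc18b1 (ENSMUSG00000037455, chromosome 10, 23796986 to 23827968, plus strand), a polyamine carrier, was at 17.4, 13.6 and 13.3 CPM in WT and 88.4, 92.8 and 81.9 CPM in KO monosomes. In high polysomes it was at 9.75, 10.1 and 9.24 CPM and 55.9, 71.1 and 60 CPM (log2 change 2.66, SE 0.22, adjusted p = 2.18e-13). Slc5a1 (ENSMUSG00000011034, chromosome 5, 33104219 to 33162870, plus strand) was at 32.4, 29.6 and 30.3 CPM in WT and 202, 189 and 220 CPM in KO high polysomes (log2 change 2.72, SE 0.15, adjusted p = 1.7e-18). In each of these comparisons the lowest KO library was above the highest WT library.

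Among vitamin carriers, Slc52a3 was at 27.3, 22 and 27.4 CPM in WT and 137, 139 and 126 CPM in KO high polysomes, with log2 changes of 2.12, 1.92 and 2.38 in monosomes, low and high polysomes. Slc5a6 changed by 1.74, 2.14 and 2.28. The thiamine importer Slc19a2 was called in low (1.55) and high polysomes (1.64) and was at 0.91 in monosomes. The metal carrier Slc39a14, which imports zinc and iron that is not bound to transferrin, was at 4.02, 1.29 and 2.65 CPM in WT and 16.7, 19 and 17.2 CPM in KO monosomes, and rose by 3.33 (log2, SE 0.37) in high polysomes.

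On the lower side, Slc1a1 (ENSMUSG00000024935, chromosome 19, 28835049 to 28913960, plus strand), an importer of glutamate and aspartate, was at 33.9, 42.9 and 47.5 CPM in WT and 3.97, 1.24 and 4.83 CPM in KO high polysomes (log2 change -3.7, SE 0.36, adjusted p = 1.12e-11). The KO libraries held 4 to 21 counts of it there and 0 to 7 in monosomes. Slc41a3 (ENSMUSG00000030089, chromosome 6, 90604725 to 90646412, plus strand) was at 94.8, 114 and 107 CPM in WT and 26.5, 19.6 and 13.6 CPM in KO high polysomes (-2.49, SE 0.18). Slc25a4 (ENSMUSG00000031633, chromosome 8, 46206797 to 46211284, minus strand) was at 748, 685 and 702 CPM and 186, 144 and 143 CPM (-2.19, SE 0.16), with -2.2 in monosomes. Slc25a5, which encodes another ADP/ATP carrier, was called lower in monosomes alone (-1.17), and at -0.23 and -0.56 in the other fractions. Reads of Slc25a5 that also match its near-identical copies were dropped in the authors' alignment, so its counts are uncertain. For both carriers the change in translation level was not called (0.01 for Slc25a4 and 0.62 for Slc25a5).

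The third comparison, the main one of the study for these libraries, was the change in translation level, the interaction of genotype and fraction. Of the members, 28 had a higher translation level in KO cells (13.1%, against 6.29% of all genes tested) and 8 a lower one (3.74% against 8.81%). The median change over members was 0.27, against 0.01 over all genes. Those higher included Slc12a4, Slc12a7, Slc12a9, Slc15a4, Slc16a10, Slc16a3, Slc17a9, Slc1a5, Slc23a2, Slc23a4, Slc26a11, Slc29a2, Slc30a10, Slc36a1, Slc37a2, Slc38a4, Slc38a6, Slc39a6, Slc43a1, Slc4a11, Slc4a2, Slc5a11, Slc5a3, Slc6a9, Slc7a3 and Slc9a8. Those lower were Slc24a1, Slc7a6os and 6 mitochondrial carriers, among them Slc25a14, Slc25a15, Slc25a25, Slc25a32 and Slc25a33. All but Slc12a9 had 3 KO gradients beyond 3 WT gradients. The calls rest on these same gradients, so this is no separate evidence, and its share over all called genes was not counted. Slc16a3, a lactate exporter, lies at the fold threshold and was not called with a replicate block (0.96), edgeR (0.99), DESeq2 (0.99), total counts (0.68), either other filter, the compared libraries alone, or without WT replicate 2 (0.86) or KO replicate 2 (0.71).

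The split of these calls rests on the scaling. With total counts, 10 members were higher and 14 lower, the median over members was -0.07 and the median of all genes shifted by -0.33. Relative to all genes the members' median was 0.26 higher under both scalings. A change of scaling shifts all genes of a comparison nearly alike, so this agreement is not a check of the result. The count was 22, with 18 higher and 4 lower, without WT replicate 2.

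**Figure D3:**
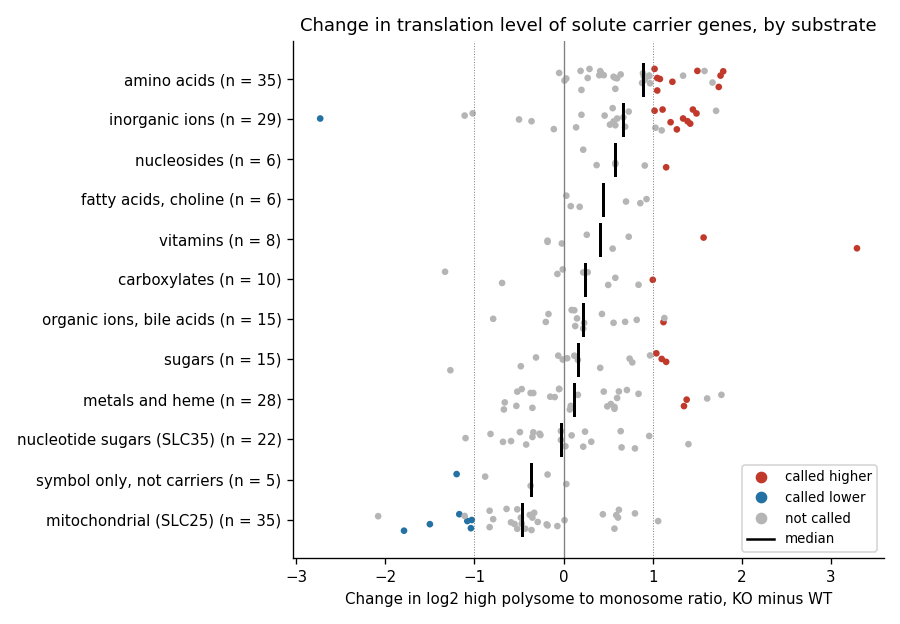
Change in the log2 high polysome to monosome ratio, KO minus WT, for each of the 214 members (points) by substrate group, with the group's median as a bar and calls in red (28 higher) and blue (8 lower). Amino acid and ion carriers lie mostly above 0, with medians of 0.89 and 0.67, and mitochondrial carriers mostly below 0, with a median of -0.47.

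Amino acid and ion carriers held most of the higher calls. Of the amino acid carriers 9 of 35 were called higher and 0 lower, and 34 of 35 values were positive. Of the ion carriers 9 of 29 were called higher and 1 lower. Of the mitochondrial carriers 0 of 35 were called higher and 6 lower. The nucleotide sugar carriers had 0 calls and a median of -0.03. Of these 22, 9 were higher in KO high polysomes and 6 in KO monosomes. With total counts the medians were 0.56 for amino acid, 0.34 for ion, -0.8 for mitochondrial and -0.36 for nucleotide sugar carriers, and the calls were 2, 5, 0 and 0 higher and 0, 1, 9 and 1 lower. In single gradients the median translation level of the amino acid carriers was 0.65, 0.18 and 0.53 in WT and 1.18, 1.05 and 1.38 in KO cells. That of the mitochondrial carriers was -0.03, 0.19 and 0.08 in WT and -0.63, -0.68 and -0.57 in KO cells. For both lists the gradients of the genotypes did not overlap.

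Several ion carriers with a higher translation level rose in high polysomes and were not called in monosomes. Slc12a7 (ENSMUSG00000017756, chromosome 13, 73733094 to 73816754, plus strand), a potassium and chloride exporter, was at 164, 142 and 158 CPM in WT and 176, 179 and 177 CPM in KO monosomes. In high polysomes it was at 239, 216 and 220 CPM in WT and 669, 554 and 826 CPM in KO cells. Its translation level rose by 1.39 (log2, SE 0.18, adjusted p = 2.03e-07), from 0.48 to 0.6 in WT gradients to 1.63 to 2.21 in KO gradients. Slc12a4, a related exporter, rose by 1.45 (SE 0.22, adjusted p = 2.36e-06), with 43.4 CPM on average in KO and 51.1 CPM in WT monosomes.

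This also held for Slc9a8 (ENSMUSG00000039463, chromosome 2, 167421712 to 167477000, plus strand), a sodium and proton exchanger of endosomal and Golgi membranes, which was at 53.8, 61.6 and 60.8 CPM in WT and 119, 148 and 128 CPM in KO high polysomes, and at 112, 111 and 75.1 CPM and 67.8, 91.3 and 77.2 CPM in monosomes. The high polysome groups were apart and the monosome groups overlapped, and the change was 1.49 (SE 0.22, adjusted p = 1.34e-06). With total counts its rise in high polysomes was 0.93 and not called. Slc4a2, an exchanger of chloride and bicarbonate, rose by 1.34 (SE 0.22) and was also higher in KO low polysomes.

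Among the amino acid carriers with a higher translation level, 2 patterns are shown here. Slc43a1 (ENSMUSG00000027075, chromosome 2, 84838850 to 84863594, plus strand), a carrier of branched-chain and other large neutral amino acids, was alike in monosomes, at 18.1, 22.6 and 23 CPM in WT and 20.6, 22.9 and 34.9 CPM in KO cells. In high polysomes it was at 16.4, 12.6 and 15 CPM and 47.6, 62.8 and 73.3 CPM, and the change was 1.76 (SE 0.34, adjusted p = 9.28e-05). Slc6a9 (ENSMUSG00000028542, chromosome 4, 117834506 to 117875198, plus strand), a glycine importer, instead fell in monosomes, from 22.1, 18.7 and 30.1 CPM to 3.89, 6.6 and 4.7 CPM, and was at 11.7 to 13.7 CPM and 5.95 to 13.6 CPM in high polysomes, which overlapped (change 1.79, SE 0.44, adjusted p = 0.00186). Among the 28 members of all substrate groups with a higher translation level, 21 were higher in KO high polysomes and 4 were lower in KO monosomes. The same split was not counted over all genes, so it is not shown to be particular to the members.

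Slc1a5 was of the second kind, with gradients of -0.87, -0.87 and -0.92 in WT and 0.3, 0.04 and 0.08 in KO cells (change 1.02, SE 0.16, adjusted p = 7.33e-06). That change lies at the fold threshold, and was 0.99 without WT replicate 2, 0.95 without KO replicate 1 and 0.69 with total counts. It was 0.95 with no filter, 0.99 with the filter of 10 CPM and 0.96 with the compared libraries alone. None of these values was called. With total counts Slc38a4 (0.72), Slc7a3 (0.89) and Slc38a6 (1.17) were not called either. With TMM factors Slc38a4 rose by 1.05 and the arginine and lysine importer Slc7a3 by 1.22 (SE 0.21). The value of Slc38a4 was 0.98 without WT replicate 2 and 0.8 without KO replicate 3. Slc38a6, with 3.12 to 5.73 CPM in WT high polysomes, changed by 1.5 (SE 0.5, adjusted p = 0.0213). Its value was 1.25 without WT replicate 1, 1.37 without WT replicate 2, 1.34 without KO replicate 1 and 1.4 without KO replicate 3, and none of these passed the test.

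Of the vitamin carriers, Slc23a2 (ENSMUSG00000027340, chromosome 2, 132052496 to 132145108, minus strand), a vitamin C importer, was at 56.6, 54.8 and 46.8 CPM in WT and 192, 128 and 118 CPM in KO high polysomes. It did not differ detectably in monosomes (29.5, 47.1 and 42.4 against 29.5, 41.5 and 34.9 CPM), and its translation level rose by 1.57 (SE 0.29, adjusted p = 6.48e-05). Slc23a4, placed in this group by its family number only, had 0, 2 and 3 counts in WT high polysomes. In KO high polysomes it had 31, 28 and 57 counts, at least 9.99-fold higher. It was the only member called on opposite sides of the gradient in the 2 genotypes. Without WT replicate 1 its change in translation level was 2.36 and its WT level -1.35, and neither was called.

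Of the mitochondrial carriers with a lower translation level, Slc25a33 fell in high polysomes and Slc25a14 rose in monosomes. Slc25a33 (ENSMUSG00000028982, chromosome 4, 149744036 to 149774277, minus strand), a pyrimidine nucleotide carrier, was at 48.8, 52.6 and 45.9 CPM in WT and 13.6, 9.63 and 9.88 CPM in KO high polysomes. Its monosome values were 32.1, 36.8 and 40.7 CPM and 27.2, 24.5 and 32.1 CPM, which touch at 32.1 CPM. Its translation level fell by 1.79 (log2, SE 0.29, adjusted p = 7.36e-06), from 0.17 to 0.59 in WT gradients to -1.63 to -0.97 in KO gradients. Slc25a14 was at 7.37, 8.39 and 10.6 CPM in WT and 31.1, 19.4 and 28.6 CPM in KO monosomes (log2 change 1.53), and at 16, 12.6 and 17.5 CPM and 25.8, 19.9 and 18.6 CPM in high polysomes, where its change was not called.

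The remaining mitochondrial calls are near the threshold or rest on few reads. Slc25a15, an ornithine carrier, changed by -1.03 (SE 0.22) and was -0.98 without WT replicate 3, -0.96 without KO replicate 1 and -0.91 without KO replicate 2. The folate and FAD carrier Slc25a32 changed by -1.5 (SE 0.46), or by -1.33 without WT replicate 2 and -1.09 without KO replicate 3, neither of which passed the test. One of its WT monosome libraries was at 21.2 CPM and the other two at 6.03 and 7.74 CPM. The ATP-Mg and phosphate carrier Slc25a25 changed by -1.17 and Slc25a14 by -1.08. The value of Slc25a25 without WT replicate 2 was -1.17 and without KO replicate 3 -0.91, and neither was called. Slc25a14 was not called without WT replicate 1 (-0.93), WT replicate 2 (-1.23), WT replicate 3 (-1.09) or KO replicate 3 (-0.88). Slc24a1, 1 of the 8 lower calls, was chosen after its values were seen. It was at 0.919 to 8.29 CPM in all libraries of these 2 fractions.

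**Figure D4:**
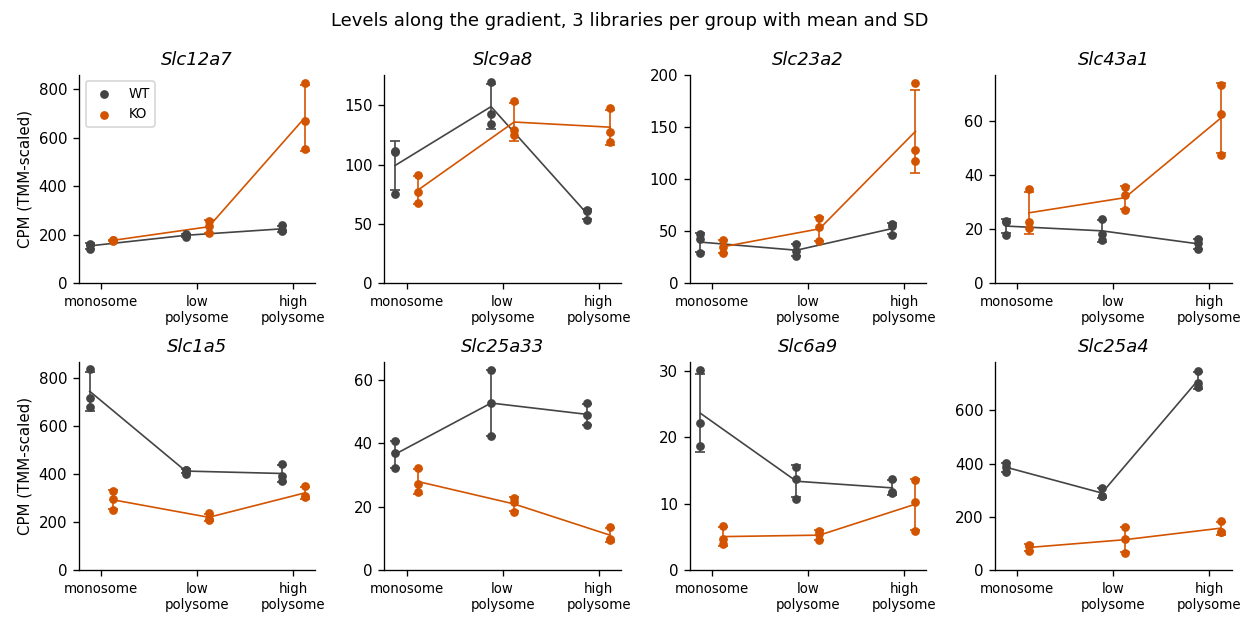
Levels in TMM-scaled CPM of 8 members in the monosome, low polysome and high polysome fractions of WT (dark) and KO cells (orange), with a point for each library and the mean and SD of 3. In Slc12a7, Slc9a8, Slc23a2 and Slc43a1 the genotypes part in high polysomes, in Slc6a9 in monosomes, and in Slc25a4 in every fraction.

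Changes at single steps of the gradient were fewer. For the low polysome to monosome ratio 3 members were called (1.4%, against 5.03% of all genes tested), and for the high to low polysome ratio 12 (5.61% against 5.18%), 8 higher and 4 lower. With total counts the first ratio gave 0 members higher and 4 lower, against 2 and 1, and the second 4 higher and 7 lower. Slc25a39, a mitochondrial carrier linked to glutathione import, had a lower low polysome to monosome ratio (log2 change -1.16, adjusted p = 3.82e-07). It was at 1050, 1030 and 984 CPM in WT and 271, 314 and 303 CPM in KO low polysomes, a wider gap than the 806, 847 and 769 against 521, 539 and 508 CPM of monosomes. The UDP-galactose carrier Slc35a2 rose by 1.02 in this ratio, and its value was 0.85 without KO replicate 2, 0.88 with total counts and 0.99 with a replicate block, so the call rests on the setting. Slc12a7, Slc9a8 and Slc43a1 were among those with a higher high to low polysome ratio, as was the arginine and lysine importer Slc7a2 (1.1). Slc7a2 was not called with a replicate block (1.13), total counts (0.91) or no filter (1.09). Its call was also lost without WT replicate 2 (1.01), WT replicate 3 (1.0) or KO replicate 3 (0.89).

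Members with longer coding sequences (CDS) had higher changes in translation level. Across the 214 members, which are not independent replicates and share the libraries, Spearman's rho of the change with CDS length was 0.47, and it was 0.56 across 11763 protein-coding genes tested. The mitochondrial carriers are short, with a median CDS of 957 nt against 1596 nt for the other carriers and 1365 nt for protein-coding genes. Without them rho over members was 0.36. For single gradients, rho of the high polysome to monosome ratio with CDS length over members was 0.22, 0.13 and 0.16 in WT and 0.41, 0.39 and 0.46 in KO cells.

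Within a length class the groups could be set beside each other. Below 1000 nt, the 24 mitochondrial carriers had a median change of -0.57, the 14 other carriers -0.26 and the 3815 protein-coding genes -0.61. From 1000 to 1500 nt the 54 other carriers had a median of 0.27 against -0.04 for 2721 protein-coding genes, from 1500 to 2000 nt 71 had 0.58 against 0.2 for 1824, and from 2000 nt 35 had 0.67 against 0.51 for 3348. The 8 mitochondrial carriers from 1000 to 1500 nt had a median of 0.2. These classes were not tested.

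**Figure D5:**
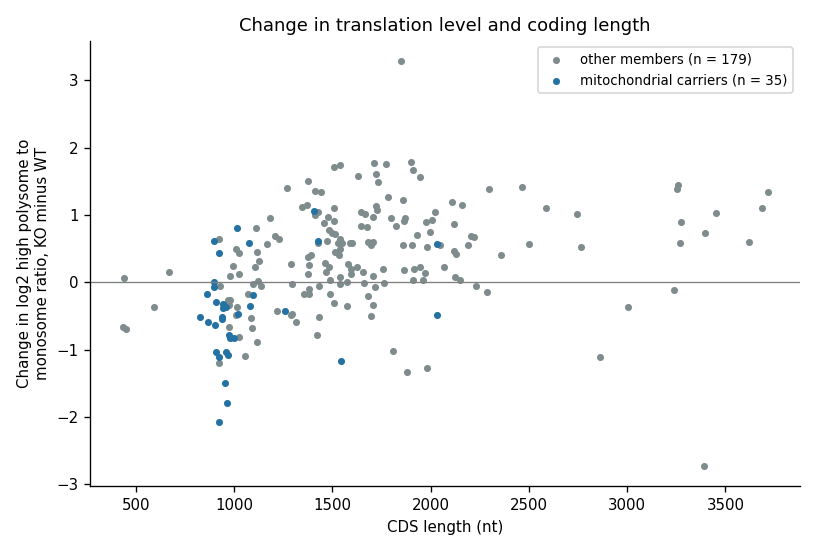
Change in the log2 high polysome to monosome ratio, KO minus WT, against CDS length in nt on a linear axis, for the 35 mitochondrial carriers (blue) and the 179 other members (grey). Spearman's rho was 0.47 over the 214 members and 0.11 over the mitochondrial carriers alone.

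Because Dgcr8 KO cells lack microRNAs, the 3′ UTRs of members were searched for sites of the ESC-specific cell cycle regulating (ESCC) family, which shares a seed (bases 2 to 8). The RefSeq table on GRCm38.p6 held 5 mature microRNAs with that seed, from clusters on chromosomes 3 and 7. They are shown because their seed defines the sites, with the seed in capitals, 5′ to 3′:
mmu-miR-291a-3p: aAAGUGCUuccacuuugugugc
mmu-miR-294-3p: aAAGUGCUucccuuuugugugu
mmu-miR-295-3p: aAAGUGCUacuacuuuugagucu
mmu-miR-302b-3p: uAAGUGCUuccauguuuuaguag
mmu-miR-302d-3p: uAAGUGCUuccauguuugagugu

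The motif searched was AGCACTT on the transcript strand, and AGCACTTA, which contains it, was counted as an 8mer. Of 212 members with a 3′ UTR in GENCODE M21, 30 (14.2%) held a site and 8 (3.77%) an 8mer, against 15.6% and 3.19% of 11616 protein-coding genes tested. The median 3′ UTR length was 1212.5 nt over these members and 955 nt over those genes. Members with a site had a median change of 0.51, 0.63 and 0.79 in monosomes, low and high polysomes, against 0.29, 0.33 and 0.52 for the 182 without. All protein-coding genes with a site were at 0.11, 0.22 and 0.25 and those without at -0.05, 0 and -0.1. In high polysomes 14 of 30 members with a site (46.7%) were called higher and 0 lower, against 64 (35.2%) and 23 (12.6%) of the 182 without. Of all protein-coding genes, 23% with a site were higher and 10.8% lower, and 14.7% and 18.6% of those without. The median 3′ UTR was 2223 nt for members holding a site and 1042.5 nt for the rest, and the part of UTR length was not tested. A match describes these letters and not a bound site.

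The 8 members with an 8mer were Slc17a5, Slc25a32, Slc30a10, Slc35a4, Slc39a6, Slc43a2, Slc4a8 and Slc7a2. Slc39a6, a zinc importer, Slc30a10, a manganese exporter, Slc4a8, a bicarbonate carrier, and Slc7a2 were called higher in KO high polysomes (log2 changes 1.81, 1.53, 1.45 and 1.79). The change in translation level of Slc30a10 (1.35) was 1.02 without WT replicate 2 and not called. Its call was also lost with total counts and without WT replicate 1, KO replicate 2 or KO replicate 3. In each of these settings it did not pass the test. The other members with an 8mer were not called in KO high polysomes. Their changes were 0.78 for the lysosomal sialic acid exporter Slc17a5, -0.79 for Slc25a32, 0.23 for Slc35a4 and 0.07 for Slc43a2. Slc30a10 was at 3.12, 1.8 and 4.14 CPM in WT and 6.28, 12.1 and 8.73 CPM in KO high polysomes. Slc25a32 had positive changes in monosomes (0.71) and low polysomes (0.32), and its negative value in high polysomes was not called. The site and 10 bases on either side are shown for 2 of the called members and for Slc25a32. The site is in capitals, on GRCm38 and read on the strand of the gene:
Slc30a10, chr1:185465068-185465095, plus strand: gcttatttatAGCACTTAtagaacttat
Slc4a8, chr15:100816365-100816392, plus strand: ttgctatggaAGCACTTAggtttccagg
Slc25a32, chr15:39092075-39092102, minus strand: agcaaagtcaAGCACTTAcaaaatgaca

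Slc6a9, the glycine importer with a higher translation level, had 2 sites of the 7mer form, at chr4:117868479-117868485 and chr4:117868923-117868929, while Slc12a7, Slc9a8, Slc43a1 and Slc23a2 had 0 in these UTRs. All 4 of the latter rose in high polysomes. Of the 5 members with a site and a higher translation level, Slc39a6 (1.81), Slc15a4 (1.54) and Slc30a10 (1.53) also rose there. Slc16a10 (-0.03) and Slc6a9 (-0.33) did not. The higher translation level of Slc30a10 was not called in several other settings, as given above. Whether a site goes with a rise was not tested among these members.

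Other membrane transport genes were counted in the same fit, in which 15.1% of all genes tested were higher and 17.9% lower in KO high polysomes. Of 24 ABC transporters 10 were higher and 0 lower in KO high polysomes, with a median change in translation level of 0.59. Of 25 P-type ATPases, the pumps of sodium, calcium and lipids, 15 were higher and 1 lower there, with a median change in translation level of 0.72 and 7 calls higher and 0 lower. The 18 V-type ATPase subunits had 4 higher and 1 lower, with a median change in translation level of 0. Of 58 ion channels 15 (25.9%) were higher and 11 (19%) lower, and of 169 Tmem genes 35 (20.7%) were higher and 21 (12.4%) lower. Their median changes in translation level were 0.26 and -0.18. The 5 SLCO organic anion transporters and 13 Mfsd genes had 2 and 3 called higher and 0 lower, with median changes in translation level of 1.17 and 0.44. Under the same measure, the members other than the mitochondrial carriers and the 5 that are not carriers had a median of 0.47. Called changes in translation level were 5 higher and 0 lower for ABC transporters, 7 and 0 for ion channels and 3 and 0 for SLCO transporters. They were 2 and 3 for V-type subunits, 10 and 10 for Tmem genes and 0 and 0 for Mfsd genes. Of all genes tested, 6.29% were called higher and 8.81% lower in this measure.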

How the data were processed

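Polysome fractions of WT and Dgcr8 KO ESCs were sequenced as 18 QuantSeq 3′ FWD libraries. The deposited table holds unnormalised read counts. To make it, the authors trimmed reads with Cutadapt 1.14, aligned them to mm10 with STAR 2.5.3a, kept reads with 1 locus only and counted them by strand over GENCODE M14 exons with featureCounts 1.5.3. Dropping reads with several loci lowers genes with near-identical copies, and no molecular identifiers were used, so PCR copies count as reads. The deposited gene length column was not used. The 92 spike-in rows (0.000522 to 0.00215% of reads) were left out.

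Symbols, coordinates (1-based, GRCm38), CDS and 3′ UTRs came from GENCODE M21, in which 51274 genes matched. Genes with 3 CPM in at least 3 libraries were fitted with TMM scaling and limma-voom (limma 3.58.1, edgeR 4.0.16, R 4.3.3) with 6 group means and no block, which follows the study's use of limma and the interaction term. All tests are two-sided, and p-values were adjusted by Benjamini-Hochberg over the 12851 genes. The fold and p thresholds are ones the study also uses, and voom is a choice made here. Printed CPM are TMM-scaled, and the filter used plain totals. Ratios per gradient use a prior count of 2. A fold against a group with 3 counts or fewer in all its libraries is a lower bound. The fits were tested on simulated data.

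The members and gene lists were chosen with earlier results of these data known, so member counts and medians are descriptions beside those of all genes. Named are, in each of 8 comparisons, up to 8 higher and 8 lower members with the largest change among those called, a mean count of at least 20 and no overlap between groups, the 12 most abundant members, the 2 most abundant of each substrate group, and a set of well-known carriers such as Slc2a3, Slc7a5 and Slc25a4. Alternatives were edgeR and DESeq2 1.42.0, other scalings and filters, the compared libraries alone, a replicate block, and leaving out each gradient. Fractions of 1 gradient share a number by design. Their deviations from group means correlated at 0.0317 to 0.135 over 18 pairs within a genotype, against -0.14 to 0.0761 for different numbers. Between genotypes, libraries of 1 fraction correlated at 0.000175 to 0.102 with the same number and at -0.0994 to 0.0554 with different numbers. The sources used here do not say whether gradients of the same number in the 2 genotypes were handled together. MicroRNA sequences came from RefSeq. Some named members and a site are not reported here.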

Additional observations from a re-analysis of the deposited data

Results flagged for a closer look

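Some of the named members had a KO to WT change that differed between high polysomes and monosomes by the test of the interaction itself (limma, adjusted over all 12851 genes tested, 3 gradients per genotype). All 3 KO gradients lay beyond all 3 WT gradients in each, which was a condition for naming them and is no separate evidence. The calls of Slc38a6, Slc25a32, Slc25a25, Slc25a14 and Slc25a15 were lost when certain single gradients were left out. The difference of log2 changes was positive for Slc6a9 (1.79), Slc43a1 (1.76), Slc23a2 (1.57), Slc38a6 (1.5), Slc9a8 (1.49), Slc12a4 (1.45) and Slc12a7 (1.39). It was negative for Slc25a33 (-1.79), Slc25a32 (-1.5), Slc7a6os (-1.2), Slc25a25 (-1.17), Slc25a14 (-1.08) and Slc25a15 (-1.03). Those on the lower side are mitochondrial carriers, except Slc7a6os, which encodes no carrier. Slc7a6os was at 74.1, 67 and 64.3 CPM in WT and 18.8, 16.8 and 12.6 CPM in KO high polysomes, and it was lower without being called in monosomes (log2 change -0.93).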

How the results depend on the processing

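Of 3198 alternative values for named members, 3022 kept their direction and their side of the threshold, 176 kept the direction and lost the call, and 0 reversed. Total counts reversed 2 medians over members, of the change in translation level (-0.07 against 0.27) and of the high to low polysome change (-0.06 against 0.14). They gave 24 calls in place of 36 for the translation level and medians of 0.01 for the low polysome to monosome change, 0.43 for KO against WT in monosomes, 0.36 in high polysomes and 0.26 for the translation level in KO cells. Without a fold threshold the calls rose to 64 for the change in translation level, 22 for low polysome to monosome, 43 for high to low polysome, 111 in monosomes and 142 in low polysomes, and to 110 in WT and 153 in KO cells for high polysome against monosome. The filter of 10 CPM left 1 low polysome to monosome call and gave medians of 0.46 in low polysomes and 0.6 for the translation level in KO cells, and no filter gave 0.39 for that level in WT cells. Leaving out 1 gradient gave 22 to 37 calls for the change in translation level, fewest without WT replicate 2. It gave 3 to 6 calls for low polysome to monosome (5 without WT replicate 1, 6 without KO replicate 1) and 6 to 13 for high to low polysome (6 without WT replicate 2). The medians were then 0.06 to 0.19 for low polysome to monosome, 0.33 to 0.44 for KO against WT in low polysomes and 0.27 to 0.4 for the translation level in WT cells. Spearman's rho with CDS length was 0.36 without the mitochondrial carriers. It was 0.47 with total counts, which is not a check, because that scaling shifts all genes nearly alike and hardly moves their ranks. A replicate block gave 37 calls for the change in translation level, 2 and 9 at the single steps, 58, 66 and 102 in monosomes, low and high polysomes, and 54 and 91 for the translation level in WT and KO cells. Of named members, 6 calls were lost under the block. The cause of these shifts was not tested. Counts per library limit what low members can show.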
